A study of Mus musculus with 8 samples.

Results

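Collagen and laminin genes were described in ribosome-bound RNA of neurons that express the mu opioid receptor (MOR) in the thalamic paraventricular nucleus (PVT). Members were all genes of the count table whose symbol is that of a collagen chain (Col, a number, a and a number) or of a laminin chain (Lama, Lamb or Lamc and a digit), with 1 transcript per gene. The rule found 54 genes of 18939, which were 43 collagen and 11 laminin genes. Mice on a C57Bl/6J background, 8 to 12 weeks old at the start, carried MOR-Cre, in which Cre is expressed from the Oprm1 gene, and the Cre-dependent ribosomal protein EGFP-L10a. Control mice drank 0.2% saccharin, and morphine mice drank morphine in 0.2% saccharin that started at 0.3 mg/ml and reached 0.5 mg/ml, for 11 days. Both groups carried both alleles. Tagged ribosomes were purified with anti-GFP antibodies from gross dissections aimed at the PVT (TRAP-Seq), and each library pooled 2 dissections from mice of the same sex. There were 4 control libraries (male replicates 1 and 2, female replicates 5 and 6) and 4 morphine libraries (male replicates 3 and 4, female replicates 7 and 8).

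Collagens are secreted or membrane-bound proteins built of chains wound into a triple helix. Fibrillar collagens form the cables of connective tissue, type IV collagens form the sheet of basement membranes, and other classes decorate fibrils, form beaded filaments or span the cell membrane. Laminins are cross-shaped trimers of an alpha, a beta and a gamma chain that form the second sheet of the basement membrane and bind integrins and dystroglycan. In the brain these proteins are abundant in the meninges and around blood vessels, while a few collagens, Col25a1 among them, are made by neurons.

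Promoters of members on which the results turn are shown first, for the collagen and the laminin chain with the highest level, a member whose groups did not overlap and a pair that shares its promoter region. They were taken from RefSeq on GRCm38.p6, from 250 bases before to 50 bases after a transcript start, which need not be the outermost start of the gene, and are written 5′ to 3′ with the gene. Capitals mark the GC box (GGGCGG) and the CCAAT box (CCAAT), on either strand. Col25a1, the transmembrane collagen with the highest level, has its window at chr3:130180595-130180894 on the plus strand. Lamb1, the laminin beta chain with the highest level, has its window at chr12:31265043-31265342 on the plus strand. Col18a1, a multiplexin whose groups did not overlap, has the window of the transcript used here at chr10:77166481-77166780 on the minus strand. Col4a1 and Col4a2 start head to head, and the bases that both of their windows hold lie at chr8:11312777-11312854, shown on the plus strand.
Col25a1: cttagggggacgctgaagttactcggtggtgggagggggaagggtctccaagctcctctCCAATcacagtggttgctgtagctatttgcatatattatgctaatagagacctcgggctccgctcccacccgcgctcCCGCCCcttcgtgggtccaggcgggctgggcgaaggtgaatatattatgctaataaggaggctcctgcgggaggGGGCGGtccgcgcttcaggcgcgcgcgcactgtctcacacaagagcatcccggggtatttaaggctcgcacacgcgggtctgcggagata
Lamb1: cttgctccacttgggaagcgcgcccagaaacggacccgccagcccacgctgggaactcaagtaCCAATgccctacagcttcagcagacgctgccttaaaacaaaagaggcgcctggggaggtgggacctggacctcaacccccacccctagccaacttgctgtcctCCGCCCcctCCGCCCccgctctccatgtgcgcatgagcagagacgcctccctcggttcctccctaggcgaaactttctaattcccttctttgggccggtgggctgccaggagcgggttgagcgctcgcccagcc
Col18a1: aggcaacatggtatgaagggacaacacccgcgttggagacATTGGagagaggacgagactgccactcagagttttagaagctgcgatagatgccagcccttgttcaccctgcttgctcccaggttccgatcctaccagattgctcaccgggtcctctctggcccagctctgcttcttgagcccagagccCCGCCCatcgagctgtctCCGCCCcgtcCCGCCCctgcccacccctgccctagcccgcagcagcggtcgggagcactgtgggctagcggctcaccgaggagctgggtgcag
Col4a1 and Col4a2, shared: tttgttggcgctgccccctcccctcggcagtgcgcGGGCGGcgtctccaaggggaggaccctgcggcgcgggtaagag
The Col25a1 and Lamb1 windows each held 2 GC boxes and 1 CCAAT box, and the Col18a1 window held 3 GC boxes and 1 CCAAT box. The 78 bases shared by Col4a1 and Col4a2 held 1 GC box and 9 CG pairs.

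RefSeq gave 44 such windows for 40 of the 54 members. A GC box was found in 26 of the 44 windows (59.1%) and in 35.7% of all 32841 windows of the same length. The CCAAT box was found in 31.8% of the members' windows and in 37.4% of all windows, and TATAAA in 11.4% and 13.6%. Each motif was searched on both strands, and matches are a description of the letters. The median number of CG pairs was 10.5 in the members' windows and 7 in all windows. Several members are neighbours on a chromosome, so their windows are not independent. The spans of Col4a1 and Col4a2 overlap by 85 bases on chromosome 8 and those of Col4a4 and Col4a3 by 114 bases on chromosome 1, and Col4a6 and Col4a5 lie 1274 bases apart on the X chromosome.

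The libraries held between 31151103 and 47582947 counts. Levels are given as CPM, the count of a gene relative to the library's total, on library sizes scaled by edgeR's TMM factors, as the mean ± SD of 4 libraries. All 14 midline thalamic marker genes were measured, with a summed level of 2264 to 2884 CPM in the control libraries and 1657 to 2946 CPM in the morphine libraries. Control replicate 5 is labelled female and held counts of 4 Y-linked genes, between 28.7% and 35.8% of the level that the male libraries averaged, while the other female libraries held at most 2 counts of any of them. The main results of the members are therefore also given without it. Sums, medians and counts of the marker and pathway lists are given only with it. In bulk samples fewer cells of a type and less RNA per cell cannot be told apart.

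Most members were weakly detected in the ribosome-bound RNA. The median level per kilobase of transcript was 0.108 CPM for the 54 members and 3.55 CPM for all genes. Only Col25a1 lay above the median gene. A mean of at least 1 CPM was reached by 20 members and missed by 34. Counts were present in every library for 49 members, and Col5a3, Col6a6, Col7a1, Col28a1 and Col13a1 had 0 counts in at least 1 library. The standard error (SE) was larger in members with fewer counts, though not in every pair of them. The median SE of the log2 fold change was 0.59 for the 17 members with a mean under 10 counts, 0.39 for the 27 members from 10 to 100 counts, and 0.21 for the 10 members above that.

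**Figure D1:**
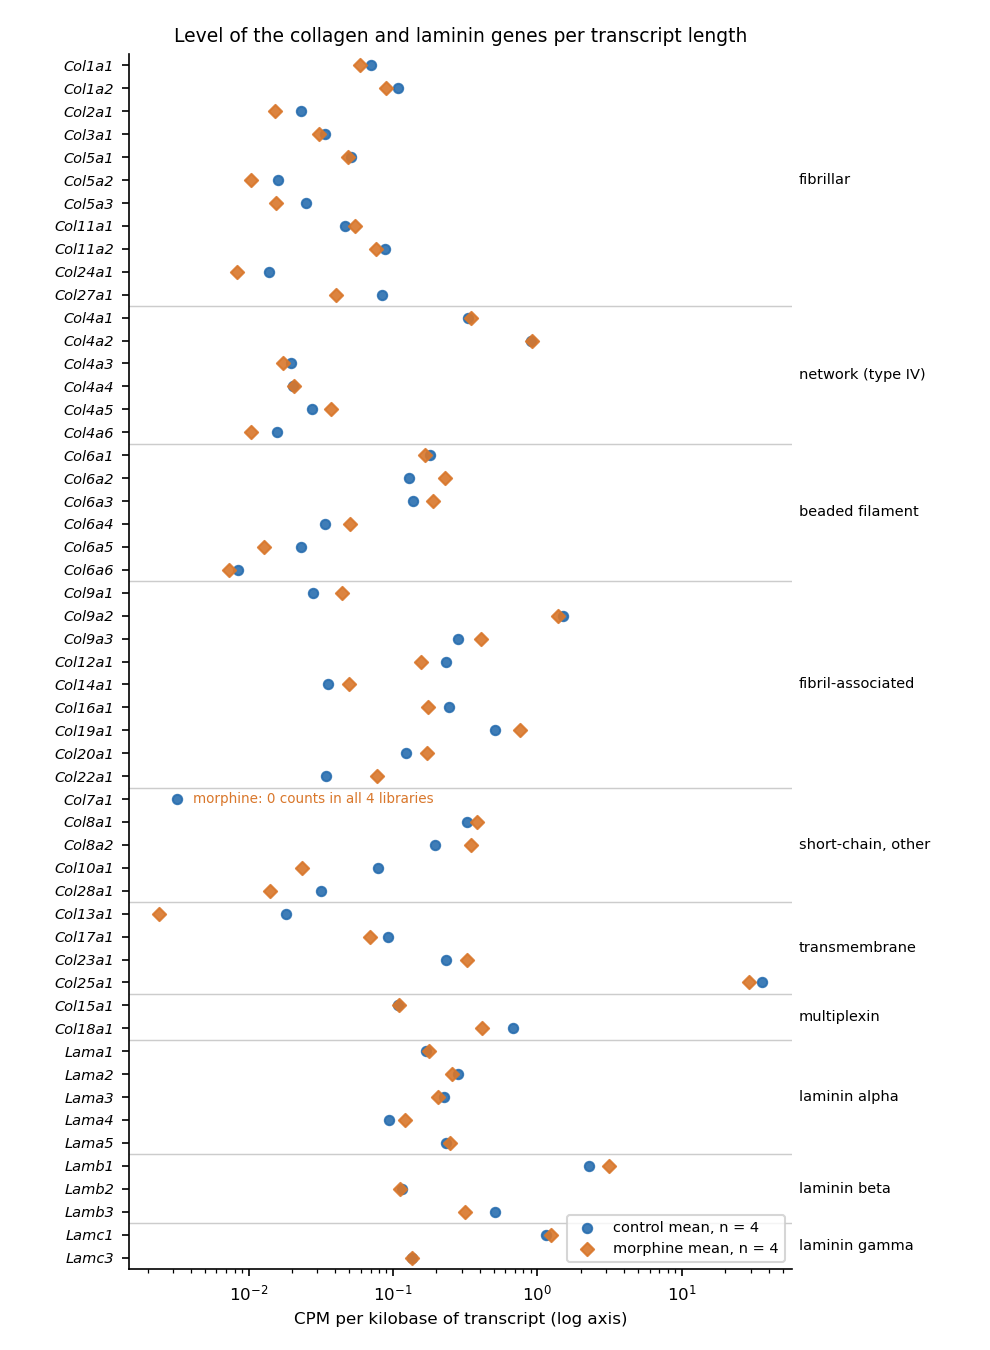
Mean CPM per kilobase of transcript (log axis) of 53 members, by class, in 4 control libraries (circles) and 4 morphine libraries (diamonds). Col25a1, at 32.6 CPM per kilobase over all libraries, lies apart from the next member, Lamb1, at 2.70, and Col7a1 had 0 counts in all 4 morphine libraries.

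Col25a1 (chr3:130180358-130599884) was the main collagen of these libraries. It encodes a transmembrane collagen of neurons whose shed part was first found in amyloid plaques. With 2232 to 4572 counts per library it held between 62.2% and 76.2% of all collagen counts. Its level of 32.6 CPM per kilobase ranked 2444 among all genes with a length, above 87.0% of them, and was 8.03 to 17.6 times that of Lamb1, the next member, in the 8 libraries. Col25a1 measured 95.9, 103, 84.9 and 93.1 CPM in control replicates 1, 2, 5 and 6, and 85.9, 70.6, 72.5 and 78.6 CPM in morphine replicates 3, 4, 7 and 8. The groups overlapped by a single pair, since morphine replicate 3 lay above control replicate 5. The mean was 94.2 ± 7.44 CPM in the control group and 76.9 ± 6.90 CPM after morphine, and the log2 fold change was -0.29 (SE 0.10, 95% interval -0.51 to -0.08; edgeR, unadjusted P = 0.0116, adjusted P = 0.257). The gene did not pass the test over all genes. Over the same libraries all 14 midline thalamic markers had log2 fold changes below 0, with a median of -0.26. Over all genes 51.4% lay above 0. At an unadjusted P value under 0.05, 5 of the 14 markers (35.7%) were lower in the morphine group, where 5.31% of all genes were. By edgeR 0 of the 14 were called, where 0.195% of all genes were. Oprm1, the gene that drives Cre in these mice and one of the markers, measured 25.3 ± 6.92 and 16.5 ± 1.95 CPM, with a log2 fold change of -0.62 (SE 0.19; edgeR, unadjusted P = 0.00649, adjusted P = 0.207). The part of these markers in the Col25a1 difference was not tested.

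Across the 54 members, 0 were called by edgeR between the morphine and control groups at an adjusted P value under 0.05, where 0.195% of all genes were called (0.164% higher and 0.0317% lower in the morphine group), and the lowest adjusted P value of a member was 0.195. DESeq2 called 0 of the 52 members to which it gave an adjusted P value (Col7a1 and Col13a1 had none), with a lowest value of 0.0523, where it called 2.63% of all genes (3.11% of those with an adjusted P value), and limma-voom called 0 members and 0.121% of all genes, with a lowest adjusted P value of a member of 0.198. When the edgeR model also held sex, 0 members and 0.581% of all genes were called. At an unadjusted P value under 0.05 there were 7 members by edgeR (13.0% of members, 12.1% of all genes), 8 by DESeq2 (12% of all genes) and 9 by limma-voom (12.6% of all genes). Of the 7 members, 3 were higher and 4 were lower in the morphine group, where 6.79% of all genes were higher and 5.31% lower at that threshold. That split moved with the libraries: 1 member was higher and 7 were lower without control replicate 5 or without morphine replicate 4, 1 and 5 without control replicate 1, and 5 and 4 without control replicate 2 or 6. In the fit without control replicate 5, 5.41% of all genes were higher and 5.67% lower. These shares were 5.00% and 4.00% without morphine replicate 4, and 4.05% and 3.55% without control replicate 1. They were 11.0% and 7.46% without control replicate 2, and 5.62% and 4.82% without control replicate 6. The groups did not overlap for 2 members, Col18a1 and Col27a1, both lower in the morphine group, a share of 3.70% where 6.54% of all genes did not overlap, 3.21% with lower and 3.34% with higher values in the morphine group. The share of members under the unadjusted threshold was near that of all genes. Log2 fold changes were above 0 for 24 members (44.4%) and for 51.4% of all genes, with medians of -0.11 and 0.01. Without control replicate 5, 8 members (14.8%) passed the unadjusted threshold of 0.05, against 11.1% over all genes. In that fit 18 members (33.3%) and 48.8% of all genes lay above 0, with medians of -0.19 and -0.0076.

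**Figure D2:**
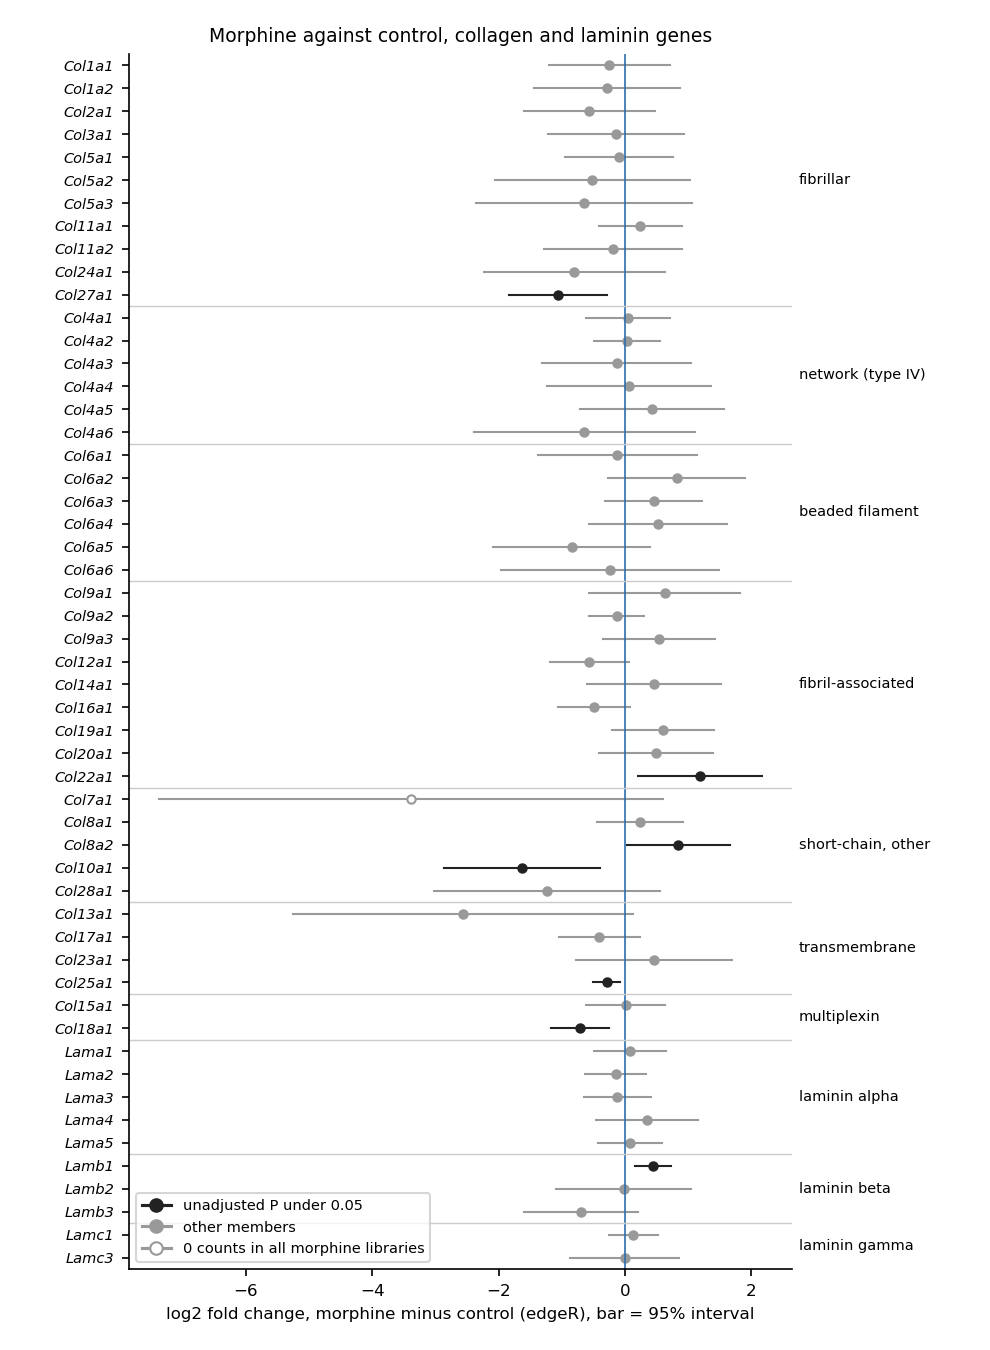
Log2 fold change by edgeR of each of 53 members, morphine minus control, with a 95% interval computed from the test, by class. The 7 members with an unadjusted P value under 0.05 are dark, most intervals cross 0, and the widest belong to members with few counts such as Col7a1 (open circle, 0 counts in all morphine libraries).

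Col18a1 (chr10:77052178-77166530) encodes the multiplexin of vascular and epithelial basement membranes from which endostatin is cut. It measured 2.97, 4.25, 2.37 and 3.42 CPM in control replicates 1, 2, 5 and 6, and 2.00, 1.91, 1.82 and 2.24 CPM in morphine replicates 3, 4, 7 and 8. Every morphine library lay below every control library. The means were 3.25 ± 0.795 and 1.99 ± 0.182 CPM, a log2 fold change of -0.71 (SE 0.21; edgeR, unadjusted P = 0.00592, adjusted P = 0.202). Col15a1, the other multiplexin, measured 0.562 ± 0.162 CPM in the control group and 0.567 ± 0.0412 CPM in the morphine group, with a 95% interval of the log2 fold change from -0.61 to 0.63.

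Col27a1, a fibrillar collagen of cartilage, measured 0.538, 0.743, 0.478 and 0.787 CPM in control replicates 1, 2, 5 and 6, and 0.141, 0.363, 0.390 and 0.329 CPM in morphine replicates 3, 4, 7 and 8. The groups did not overlap, at 5 to 33 counts per library. The log2 fold change was -1.06 (SE 0.35; edgeR, unadjusted P = 0.012, adjusted P = 0.261). Col10a1, the short-chain collagen of hypertrophic cartilage, had 12, 14, 11 and 4 counts in the control libraries and 1, 3, 1 and 7 counts in the morphine libraries. Morphine replicate 8 lay above control replicate 6, so the groups overlapped. Its log2 fold change was -1.63 (SE 0.56; edgeR, unadjusted P = 0.014, adjusted P = 0.275).

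Lamb1 (chr12:31265146-31329644), the widespread laminin beta chain, measured 12.02, 13.0, 15.6 and 12.3 CPM in control replicates 1, 2, 5 and 6, and 15.0, 19.4, 19.2 and 18.6 CPM in morphine replicates 3, 4, 7 and 8. The groups overlapped by a single pair, since morphine replicate 3 lay below control replicate 5. The means were 13.2 ± 1.64 and 18.0 ± 2.06 CPM, a log2 fold change of 0.45 (SE 0.13, 95% interval 0.16 to 0.73; edgeR, unadjusted P = 0.00534, adjusted P = 0.195). This was the lowest P value among the members, and DESeq2 gave an adjusted P value of 0.0523.

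Col22a1, a fibril-associated collagen of tissue junctions such as that of muscle and tendon, measured 0.154, 0.203, 0.239 and 0.624 CPM in the control libraries and 0.590, 0.969, 0.422 and 0.760 CPM in the morphine libraries, in the order given above. Control replicate 6 lay within the morphine group. The log2 fold change was 1.18 (SE 0.45; edgeR, unadjusted P = 0.0224, adjusted P = 0.318). Col8a2, a short-chain collagen of the corneal Descemet membrane, measured 0.667, 1.10, 0.406 and 1.22 CPM in the control libraries and 0.956, 1.88, 1.17 and 2.06 CPM in the morphine libraries. The groups overlapped, and the log2 fold change was 0.84 (SE 0.37; edgeR, unadjusted P = 0.0439, adjusted P = 0.395).

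**Figure D3:**
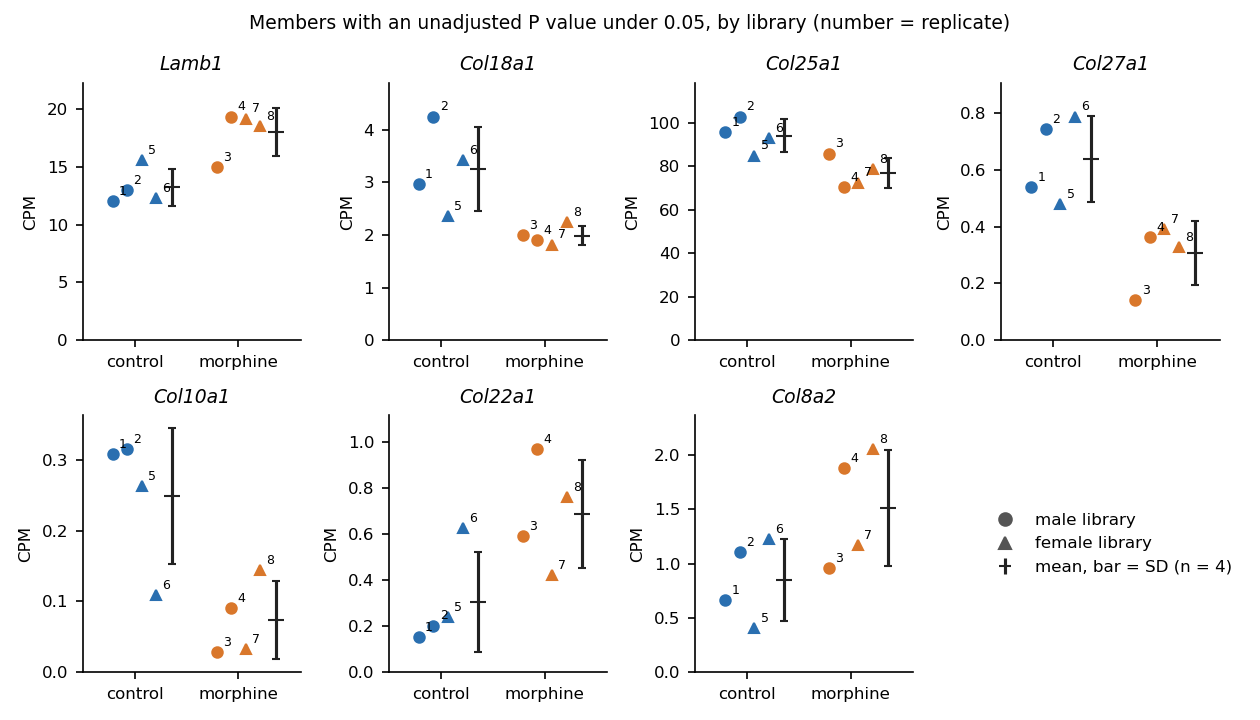
CPM by library of the 7 members whose unadjusted P value was under 0.05; bars give the mean and SD of 4 libraries per group (circles male, triangles female, numbers the replicates). Col18a1 and Col27a1 are the members whose groups do not overlap, and in Col22a1 control replicate 6 (0.624 CPM) lies among the morphine libraries.

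With each library left out in turn, Lamb1, Col18a1, Col27a1, Col25a1 and Col10a1 kept an unadjusted P value under 0.05 in 8 of 8 edgeR fits, and Col22a1 and Col8a2 in 4 of 8. Log2 fold changes lay between 0.39 and 0.52 for Lamb1, between -0.85 and -0.55 for Col18a1, between -1.20 and -0.82 for Col27a1 and between -0.35 and -0.25 for Col25a1. The other 3 members moved more, between -2.24 and -1.38 for Col10a1, between 0.96 and 1.75 for Col22a1 and between 0.59 and 1.04 for Col8a2. The value of -2.24 was without morphine replicate 8 and that of 1.75 without control replicate 6. Without control replicate 5 they were 0.52 for Lamb1, -0.85 for Col18a1, -1.18 for Col27a1, -0.35 for Col25a1, -1.63 for Col10a1, 1.07 for Col22a1 and 0.59 for Col8a2. No member was called in any of the 8 fits (edgeR, lowest adjusted P = 0.0972), where at most 0.408% of all genes were. Over all genes 0 were called without morphine replicate 4 or 8 and 1 without control replicate 1, so those fits say little about the members.

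Fibrillar collagens, the proteins of connective tissue cables, were low. Col1a2 had the highest mean CPM of this class. It measured 0.154, 1.31, 0.406 and 0.462 CPM in control replicates 1, 2, 5 and 6, and 0.590, 0.454, 0.292 and 0.576 CPM in morphine replicates 3, 4, 7 and 8. Control replicate 2 lay far above the others and held 58 of the 171 counts of Col1a2. Per kilobase Col1a2 lay above Col11a2, the next of the class, in only 5 of 8 libraries. Of the 11 fibrillar collagens, 10 had log2 fold changes below 0, with a median of -0.28. Without control replicate 2, 5 of 11 were below 0 and the median was 0.08, so the direction of the class rested on that library.

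Control replicate 2 was the highest control library for 30 of the 54 members (55.6%) and for 32.1% of all genes. It also had the highest summed level of fibroblast markers among the control libraries (53.9 CPM, range 9.64 to 53.9), of endothelial markers (41.2 CPM, range 19.998 to 41.2) and of pericyte and smooth muscle markers (17.0 CPM, range 6.56 to 17.0). The morphine libraries lay at 23.1 to 47.5, 20.5 to 35.8 and 8.15 to 13.5 CPM for the same lists. Igf2 alone made up 72.4% of the fibroblast sum in control replicate 2, and without it the other 13 fibroblast markers summed to 14.9 CPM there, to 4.67, 7.08 and 13.5 CPM in control replicates 1, 5 and 6, and to 12.3 to 31.7 CPM in the morphine libraries. Slc16a1 made up 45.9% to 66.3% of the endothelial sum, and without it control replicate 2 was still the highest control library (22.3 CPM, range 8.15 to 22.3). All 14 genes of each list were measured. Slc47a1 of the fibroblast list, Tie1 and Sox17 of the endothelial list and Kcnj8 and Anpep of the pericyte list had 0 counts in at least 1 library, and none was at 0 in all. The part of these cells in the collagen and laminin levels was not tested. Without control replicate 2 the median log2 fold change of the 54 members was 0.20, where that of all genes was 0.018, and 34 members (63.0%) lay above 0, where 52.5% of all genes did. The groups also differed in choroid plexus markers. These summed to 43.8, 86.1, 91.1 and 167 CPM in control replicates 1, 2, 5 and 6, and to 252, 429, 222 and 690 CPM in morphine replicates 3, 4, 7 and 8, with no overlap. Of the 15 choroid plexus markers 12 were higher in the morphine group at an unadjusted P value under 0.05, where 6.79% of all genes were. By edgeR 0 of the 15 were called, where 0.195% of all genes were. Ttr (17.0 ± 19.0 and 174 ± 106 CPM) and Enpp2 (35.0 ± 20.4 and 148 ± 91.5 CPM) were the highest of these markers. The part of the choroid plexus markers in the collagen and laminin results was not tested. Kcnj13 was at 0 in at least 1 library. Markers of telencephalic pyramidal neurons, of which 12 of 13 were measured and none was at 0, summed to 515 to 810 CPM in the control and 821 to 1137 CPM in the morphine libraries. Of these, 7 were higher and 1 lower at an unadjusted P value under 0.05, where 6.79% of all genes were higher and 5.31% lower. Bhlhe22 was called (24.1 ± 4.73 and 52.6 ± 7.18 CPM, edgeR, adjusted P = 0.0176), where 0.195% of all genes were. That call held in 5 of 8 fits with a library left out and was lost without control replicate 1, morphine replicate 4 or morphine replicate 8 (edgeR, adjusted P from 0.0123 to 0.0926). Their part in the members' values, Lamb1 and Col25a1 included, was not tested.

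**Figure D4:**
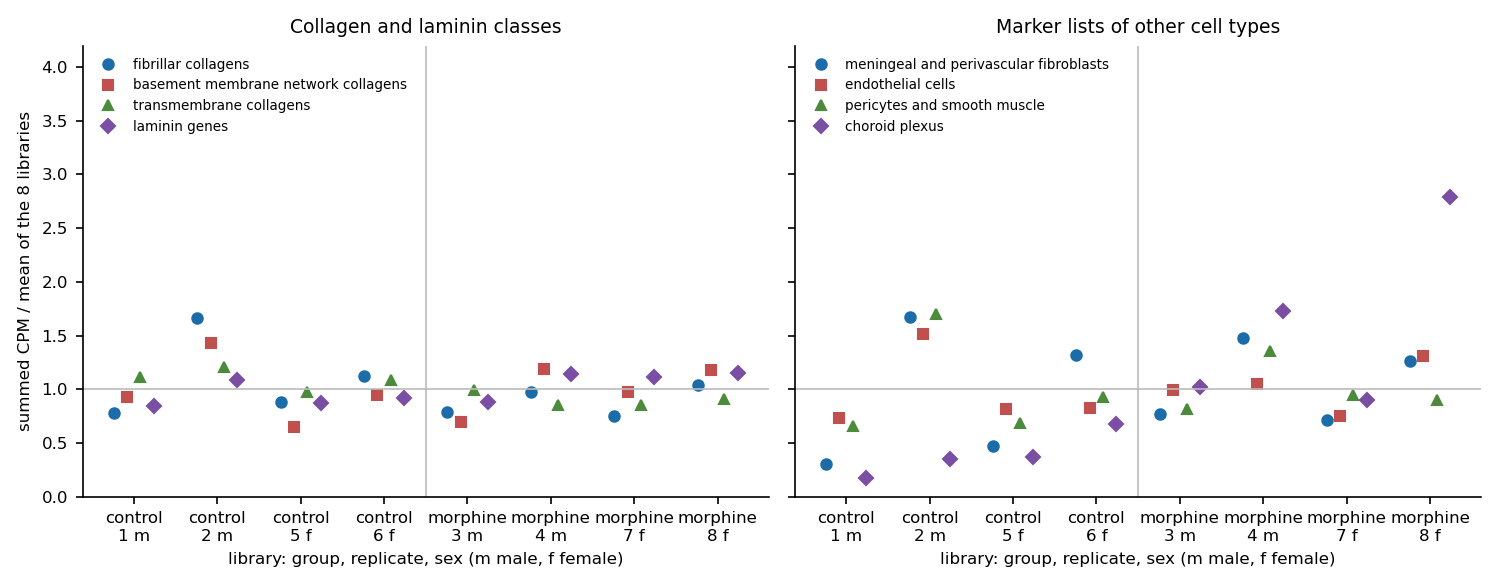
Summed CPM of 4 member classes (left) and of 4 marker lists of other cell types (right) in each library, divided by the mean of the 8 libraries. Control replicate 2 is the highest control library for all 4 member classes drawn and for the fibroblast, endothelial and pericyte lists. The choroid plexus list is higher in every morphine library than in every control library.

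Type IV collagens, the network of basement membranes, were led by Col4a2 and Col4a1, whose chains combine in the vessel wall. Col4a2 measured 5.79, 8.08, 4.02 and 5.48 CPM in control replicates 1, 2, 5 and 6, and 4.13, 6.93, 5.42 and 7.34 CPM in morphine replicates 3, 4, 7 and 8. The groups overlapped widely, with a log2 fold change of 0.03 and a 95% interval from -0.49 to 0.55. Col4a1 had a log2 fold change of 0.05 with an interval from -0.62 to 0.72. Per kilobase, Col4a2 lay at 2.04 to 3.36 times Col4a1 in the 8 libraries (median 2.90), and the pair shares 22 exon bases on opposite strands, where reads cannot be assigned if counting did not use the strand. The other 4 type IV chains lay between 0.0131 and 0.0324 CPM per kilobase over all libraries. Of the 6 genes, 4 had log2 fold changes above 0, with a median of 0.04, and the class had no stable direction. With each library left out between 1 and 4 of the 6 lay above 0 and the median ran from -0.16, without control replicate 5, to 0.30, without control replicate 2. It was also below 0 without control replicate 1 or 6 or morphine replicate 4 or 8.

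Beaded-filament collagens (type VI) connect cells to the surrounding matrix. Col6a3, the largest chain and the one with the highest CPM, measured 1.26, 0.990, 1.63 and 1.66 CPM in control replicates 1, 2, 5 and 6, and 0.759, 2.24, 2.79 and 1.81 CPM in morphine replicates 3, 4, 7 and 8. Morphine replicate 3 was the lowest of all libraries. The interval of the Col6a3 log2 fold change ran from -0.31 to 1.22. Per kilobase Col6a2 (0.179 CPM), Col6a1 (0.174 CPM) and Col6a3 (0.162 CPM) lay close together over all libraries. Of the 6 genes, 3 lay above and 3 below 0, and 0 had an unadjusted P value under 0.05 by edgeR. The ratio of Col6a2 to Col6a1 per kilobase varied from 0.26 to 3.53 between libraries. It was 0.70 ± 0.34 in the control and 2.04 ± 1.19 in the morphine libraries, and this difference was not tested.

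Fibril-associated collagens sit on the surface of fibrils. Col9a2, a chain of the type IX collagen of cartilage, was the highest of them at 1.45 CPM per kilobase, after Col25a1 and Lamb1. It measured 4.61, 5.63, 4.21 and 3.29 CPM in control replicates 1, 2, 5 and 6, and 4.33, 3.21, 3.83 and 4.81 CPM in morphine replicates 3, 4, 7 and 8. The group ranges overlapped almost completely, with a log2 fold change of -0.13 and a 95% interval from -0.57 to 0.30. The other chains of type IX collagen lay lower, Col9a3 at 0.346 and Col9a1 at 0.0362 CPM per kilobase, and Col9a3 shares 6.07% of its exon bases with Tcfl5 on the other strand. Col19a1 had 0.636 CPM per kilobase. Of the 9 genes, 6 had log2 fold changes above 0, with a median of 0.49, and 0 were called by edgeR. Over all genes 51.4% lay above 0 and 0.195% were called. With each library left out 6 to 7 of the 9 lay above 0, with medians from 0.26 to 0.74.

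Among the remaining short-chain and anchoring collagens, Col8a1, the partner of Col8a2 in type VIII collagen, measured 1.44, 1.98, 1.12 and 2.14 CPM in control replicates 1, 2, 5 and 6, and 1.66, 1.97, 1.17 and 3.00 CPM in morphine replicates 3, 4, 7 and 8. The groups overlapped, with an interval of the log2 fold change from -0.44 to 0.91. Col7a1, the anchoring fibril of skin, had 5 counts in all, with 0 in every morphine library. It was not called (edgeR, unadjusted P = 0.0861, adjusted P = 0.496), and so few counts do not settle whether it differed. Among the transmembrane collagens other than Col25a1, Col13a1 had 10 counts in all, and Col17a1 and Col23a1 lay at 0.0805 and 0.280 CPM per kilobase.

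Beta chains kept 1 order in every library. Per kilobase, Lamb1 (2.70 CPM) lay above Lamb3 (0.414 CPM), and Lamb3 above Lamb2 (0.114 CPM), in 8 of 8 libraries. Lamc1 (1.20 CPM) lay above Lamc3 (0.135 CPM) in 8 of 8 libraries. The alpha chains were closer together, at 0.271 CPM per kilobase for Lama2, 0.242 for Lama5, 0.216 for Lama3, 0.173 for Lama1 and 0.108 for Lama4, and neighbours in this order kept it in 4, 6, 6 and 7 of the 8 libraries. The order of Lama2 and Lama5 is thus not beyond their spread. Of the exon bases of Lama2, 3.86% overlap an antisense gene, as do 6.27% of those of Lamc3.

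Lamc1, the common gamma chain, measured 6.67, 10.5, 8.56 and 9.09 CPM in control replicates 1, 2, 5 and 6, and 7.22, 10.3, 9.42 and 11.2 CPM in morphine replicates 3, 4, 7 and 8. The groups overlapped, with a log2 fold change of 0.13 and a 95% interval from -0.25 to 0.52. Lamb3 measured 2.74, 2.90, 1.17 and 1.47 CPM in the control libraries and 0.590, 2.06, 1.62 and 0.863 CPM in the morphine libraries. The groups overlapped, with a log2 fold change of -0.70 (95% interval -1.60 to 0.20). Lama3 had a log2 fold change of -0.12 (95% interval -0.65 to 0.40).

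Lama2, the alpha chain of muscle and of vascular basement membranes, measured 2.73 ± 0.611 CPM in the control and 2.47 ± 0.478 CPM in the morphine group, with a log2 fold change of -0.15. Lama5 measured 2.67 ± 0.676 and 2.83 ± 0.563 CPM, Lama1 1.61 ± 0.249 and 1.68 ± 0.514 CPM, and Lama4, a chain of vessel walls, 0.569 ± 0.229 and 0.731 ± 0.269 CPM. Lamb2 measured 0.649 ± 0.485 and 0.631 ± 0.280 CPM and Lamc3 0.798 ± 0.481 and 0.793 ± 0.0695 CPM. None of these 6 chains had an unadjusted P value under 0.05. Control replicate 2 was the highest control library for Lamb2 (1.35 CPM) and for Lamc3 (1.40 CPM). Of the 11 laminin genes 6 had log2 fold changes above 0, with a median of 0.07. With each library left out between 4 and 9 did, with medians from -0.08, without control replicate 5, to 0.24, without control replicate 2, and the median was also below 0 without morphine replicate 8 (-0.07, 5 of 11 above 0).

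The genes that make, bind and cut collagen and laminin were read from the same fit. Of 32 collagen processing enzymes and chaperones, 0 were called by edgeR, 24 had log2 fold changes above 0, and Pcolce, Adamts3 and Crtap had an unadjusted P value under 0.05, all higher in the morphine group. Of 18 basement membrane partners, 1 was called. Smoc2, a secreted calcium-binding matrix protein, rose from 1.17 ± 0.427 to 4.74 ± 0.702 CPM (log2 fold change 2.02, SE 0.26; edgeR, adjusted P = 0.0176), with no overlap of the groups, and it was called in 5 of 8 fits with a library left out (edgeR, adjusted P from 0.0122 to 0.0905). It was lost without control replicate 1, morphine replicate 4 or morphine replicate 8. Nid2 and Pxdn had an unadjusted P value under 0.05 without being called. Of 19 receptors 0 were called, and Itga7, Itgb1 and Sgce had an unadjusted P value under 0.05. Of 20 collagen-degrading proteases and inhibitors 0 were called, and Mmp17 (34.9 ± 14.1 and 69.7 ± 25.2 CPM; edgeR, adjusted P = 0.219) and Mmp16 had an unadjusted P value under 0.05. Median log2 fold changes of the 4 lists were 0.29, 0.14, 0.22 and 0.21, where the median of all genes was 0.01. The shares under the unadjusted threshold were 9.38%, 16.7%, 15.8% and 10% in the same order, where 12.1% of all genes had such a P value, 0.195% were called and 51.4% lay above 0. The summed levels of the choroid plexus and telencephalic pyramidal markers described above were higher in every morphine library than in every control library, and their part in the values of these lists, Smoc2 included, was not tested. Log2 fold changes were above 0 for 12 of 12 oligodendrocyte, 9 of 9 oligodendrocyte precursor, 10 of 11 astrocyte and 4 of 12 microglia markers. Of these glial markers 0 were called by edgeR, and their part was not tested either.

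The sexes on the labels were compared in a model that held condition. By edgeR 0 members were called, where 0.00528% of all genes were, and 1 member had an unadjusted P value under 0.05, where 3.1% of all genes had. This was Col23a1, named here after its values were seen, at 2.11 ± 1.35 CPM in the 4 male and 1.06 ± 0.564 CPM in the 4 female libraries (edgeR, unadjusted P = 0.049, adjusted P = 1.00). Control replicate 5, the female library with counts of Y-linked genes, measured 0.359 CPM, and without it the other 3 female libraries averaged 1.29 ± 0.387 CPM. The log2 difference, female minus male, was -1.04, and with each library left out it lay between -1.39 and -0.56. The unadjusted P value stayed under 0.05 in 4 of 8 such fits, and that was lost without control replicate 2 (-0.79), control replicate 5 (-0.76), morphine replicate 4 (-0.56) or morphine replicate 8 (-0.93). Over these 8 fits the values ran widely (edgeR, unadjusted P from 0.00743 to 0.321, adjusted P from 0.886 to 1.00). DESeq2 gave Col23a1 an unadjusted P value of 0.0418, and edgeR after its expression filter (filterByExpr) gave 0.0788. Without control replicate 5 the 1 member under 0.05 was Col19a1, where 2.63% of all genes lay under it. The interaction of sex and morphine was called for 0 members and 0% of all genes, and 1 member, Col20a1, also named after its values were seen, had an unadjusted P value under 0.05 (edgeR, unadjusted P = 0.027), where 1.72% of all genes had. The interaction of Col20a1 was -1.72 on the log2 scale and lay between -2.16 (without control replicate 5) and -1.13 (without control replicate 6) with each library left out. Its unadjusted P value stayed under 0.05 in 4 of 8 such edgeR fits (0.00882 to 0.142) and was lost without control replicate 2 or 6 or morphine replicate 4 or 8, and DESeq2 gave an unadjusted P value of 0.0601. DESeq2 called 0 of the 21 members to which it gave an adjusted P value for sex, where 0.199% of the genes with one were called, and 0 of 54 for the interaction, where it called 0.0211% of all genes.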

How the data were processed

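The authors deposited raw counts of reads, 1 whole number for each RefSeq transcript in each of 8 TRAP-Seq libraries, with no normalization. The tool that made it is not given in the sources used here, nor whether counting used the strand; the methods describe Salmon with an mm10 index and DESeq2 for the study's own analysis. The table holds 24488 transcripts of 18939 genes, and 0 columns lacked a sample. Of a gene's transcripts, that with the most counts over the 8 libraries was used. Groups, sexes and replicates came from the labels.

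Counts were fitted for all genes together with edgeR 4.0.16 (R 4.3.3, TMM factors, quasi-likelihood test), with condition as the only term and Benjamini-Hochberg adjustment over all genes; a gene is called at an adjusted P value under 0.05. Sex and its interaction were tested in separate models. Gene coordinates came from RefSeq on GRCm38.p6, with 53 members placed by transcript. Lengths and exon overlaps came from GENCODE transcripts of the same build matched by RefSeq identifier, and for Col12a1 by symbol. Alternatives were DESeq2 1.42.0, limma-voom (limma 3.58.1), sex in the model, each library left out, the sum over transcripts, at least 10 counts in every library, upper-quartile or RLE factors and filterByExpr. The tests were tried on simulated data. No sequencing batch is given, so none could be compared.

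The members and lists were chosen with earlier results of these data known. Named members were those called, with an unadjusted P value under 0.05, with groups that do not overlap, with the highest CPM of their class or at least 10 CPM, and the laminins; the values of 1 member are not reported here, though it is part of all counts and sums; from other lists, called genes and up to 3 with the lowest P value. Emid2, the older symbol of a further collagen, is not matched by the rule. PCR copies are not marked in the counts, so reads are not independent molecules. P values measure the spread between libraries, each a pool of 2 mice.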

Additional observations from a re-analysis of the deposited data

Results flagged for a closer look

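In control libraries Lama3, a laminin alpha chain, was lowest in replicate 5, at 1.67 CPM, while the other 3 control libraries lay between 2.52 and 2.66 CPM. This is the control library that is labelled female and holds Y-linked counts. In morphine libraries Lamb2, a laminin beta chain, was highest in replicate 8, at 1.05 CPM, while the other 3 lay between 0.455 and 0.515 CPM. That library also had the highest summed level of choroid plexus markers, 690 CPM, and the part of either in these values was not tested. In each case the gap to the nearest library, as a share of the group's range (0.866 and 0.899), exceeded Dixon's critical value. Such gaps were looked for in 44 groups of 4 libraries, and chance gives about 1 in 20, so 2 of 44 is no more than that.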

How the results depend on the processing

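Of the members that had an adjusted P value, 0 were called in any of the alternatives tried for morphine against control, for sex and for the interaction; DESeq2 gave one to 52, 21 and 54 members. The number of all genes called moved from 37 to 498 with DESeq2, 110 with sex in the model, 23 with limma-voom, 22 with the sum over transcripts, 15 with at least 10 counts in every library and 14 with filterByExpr, and lay between 0 and 77 with each library left out, at 0 without morphine replicate 4 or 8. The median log2 fold change of the members lay between -0.19 and 0.20 with each library left out, and 0.20 was without control replicate 2. Of 347 values of named members under alternatives, 323 kept their direction and 24, of 9 members turned. With limma-voom Col1a2 was 0.057, Lamb2 0.18 and Lamc3 0.20, and with sex in the model Lamb2 was 0.033 and Lamc3 0.0081. With each library left out, log2 fold changes lay between -0.60 and 0.50 for Col1a2, -0.13 and 0.23 for Col4a2, -0.062 and 0.39 for Col8a1, -0.27 and 0.0052 for Col9a2, -0.10 and 0.25 for Lama1, -0.27 and 0.0053 for Lama2, -0.082 and 0.20 for Lama5, -0.40 and 0.64 for Lamb2, and -0.25 and 0.42 for Lamc3. The causes were not tested. No paired analysis was possible because the control and morphine groups share no replicate numbers. Depth limits the members with few counts: 29 have at least 10 counts in every library and 38 pass filterByExpr.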
